A study of Mus musculus with 8 samples.

Results

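The genes described here are 35 genes of striated skeletal muscle that build the sarcomere, release and store calcium or supply the fibre with energy. They were chosen as a list of symbols, as a check on the muscle content of whole skin, and each was found through the RefSeq accession of its array probes. The 35 genes have 44 probes and are a small part of the 20284 genes named on the array. All 35 passed the filter on dim probes and were among the 17736 genes tested. No probe of theirs was saturated.

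The study hybridised RNA of whole skin from mice to 8 one-colour arrays, of which 4 carried Control skin and 4 carried DTG skin. Its title refers to Musashi1 overexpression. Musashi1 is a protein that binds RNA, and its gene is Msi1. The labels do not spell out DTG and give no strain, age, promoter or induction schedule. They call all 8 samples male. Each sample title carries its own number, but the labels do not say what it stands for or whether the skins came from separate animals. A p-value therefore covers no more than the scatter among these samples, some of which may be technical. The 8 arrays lay on 1 slide, with Control in row 1 and DTG in row 2, so the row on the slide and the group cannot be told apart.

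Skeletal muscle in mouse skin belongs mainly to the panniculus carnosus, a thin sheet of striated muscle under the dermis that lets the skin twitch. In each sarcomere the myosin of the thick filament pulls on the actin of the thin filament once calcium binds troponin C, and the Z-disc anchors the thin filaments of neighbouring sarcomeres. Fast and slow fibres use different genes for the same parts, so a troponin or myosin gene also reports the kind of fibre. In bulk skin, fewer muscle fibres and less muscle RNA per fibre cannot be told apart.

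The genes of striated muscle were plainly measured in these skins. Of the 35 genes, 34 were well above background on all 8 arrays. The exception was Myh7, the myosin heavy chain of slow fibres, which was well above background on the 4 Control arrays and on 3 DTG arrays. Levels are given as log2 signal above the 75th percentile of the same array, and the level of a probe says nothing of another probe's level. Across the series, 79.5% to 85.1% of spots were well above background on the Control arrays and 68.8% to 71.6% on the DTG arrays. Correlations were taken over all probes other than controls that had a value on every array, whether or not they were named or tested. They were 0.982 to 0.992 among Control arrays, 0.984 to 0.988 among DTG arrays and 0.962 to 0.976 between the groups. Of the 2 probes for Msi1, A_55_P2062688 was higher in DTG by 6.81 on the log2 scale (SE 1.02, limma adjusted p = 0.0030 in the probe-level fit, with 3 DTG values), and A_51_P296866 differed by -0.03 (SE 0.14, limma adjusted p = 0.90).

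Against Control, 8 of the 35 muscle genes fell in DTG skin and 1 rose, on the scale set by each array's 75th percentile, whereas on a scale set by the spike-in spots none fell. The genes that fell were the fast troponins Tnni2, Tnnt3 and Tnnc2, the slow troponin Tnnc1, the Z-disc gene Myoz1, and Eno3, Mb and Pygm of energy metabolism. They were 1.20-fold (Myoz1) to 1.40-fold (Tnnc1) lower. Tnni1, the inhibitory troponin of slow fibres, was 1.59-fold higher. Differences were tested with limma and adjusted over all 17736 genes by the Benjamini-Hochberg method, with calls at an adjusted p under 0.05. With the slide column as a block, each column holding 1 Control and 1 DTG array, 3 genes remained lower (Tnnc1, Tnni2 and Eno3) and none passed as higher (1 at an unadjusted p under 0.05). Over all genes, that block gave 15.8% lower and 8.72% higher.

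The share of muscle genes that fell, 22.9%, was close to that of all genes tested, of which 21.3% fell. The share that rose was 2.86%, against 11.2% of all genes, and the share called in either direction was 25.7%, against 32.5%. The other 26 muscle genes did not pass the test. In 12 genes (34.3%) every DTG value lay below every Control value, which held for 23.2% of all genes, and in 1 gene every DTG value lay above, which held for 11.4%. The median log2 difference, DTG minus Control, was -0.23 over the 35 genes and -0.15 over all genes tested. Of the 35 differences, 29 were below 0 and 22 were below the median of all genes. Over the 17736 genes tested, 11443 differences were below 0. The 35 differences ran from -0.48 to 0.67.

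**Figure D1:**
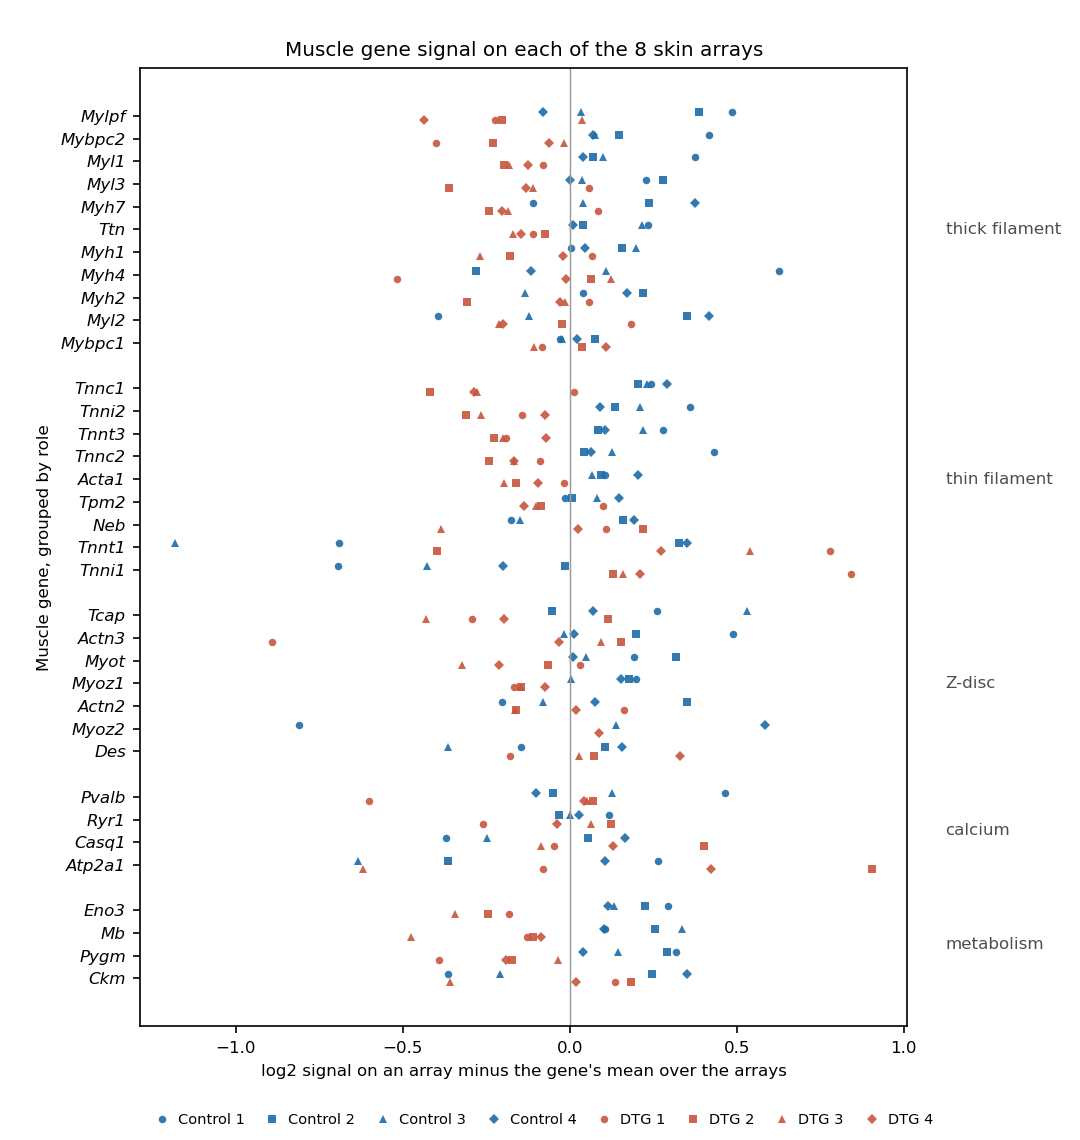
Signal of the 35 muscle genes on each of the 8 arrays, as log2 signal minus the gene's mean over the arrays (horizontal axis), with genes grouped by role (vertical axis). Blue marks are Control arrays, red marks are DTG arrays, and each shape is 1 array of the group. In 12 genes all red marks lie to the left of all blue marks, and in Tnni1 all lie to the right, on the scale of each array's 75th percentile.

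The upstream sequences of 5 called genes are shown, 1 that rose and 4 that fell, so that E-boxes can be seen on both sides. Mb, which also fell and has starts in the table, is not shown. Skeletal muscle genes are commonly switched on by the MyoD family of factors, which bind E-boxes, and by MEF2. RefSeq starts (build GRCm38.p6) were matched for 28 of the 35 genes, with 34 starts in all. Each sequence is the 250 bases before a start, 5′ to 3′ on the gene's own strand, and capitals mark every E-box, CANNTG, found on either strand. Tnni1, the gene that rose, has 2 starts in the table, of which the upstream one is shown.
Tnni1, chr1:135799171-135799420, plus strand: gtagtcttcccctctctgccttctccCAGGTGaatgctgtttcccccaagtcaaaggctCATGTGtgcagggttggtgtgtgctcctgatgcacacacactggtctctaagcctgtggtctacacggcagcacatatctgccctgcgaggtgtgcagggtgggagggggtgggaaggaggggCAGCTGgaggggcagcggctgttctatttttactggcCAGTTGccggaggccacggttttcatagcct
Tnnc1, chr14:31208062-31208311, plus strand: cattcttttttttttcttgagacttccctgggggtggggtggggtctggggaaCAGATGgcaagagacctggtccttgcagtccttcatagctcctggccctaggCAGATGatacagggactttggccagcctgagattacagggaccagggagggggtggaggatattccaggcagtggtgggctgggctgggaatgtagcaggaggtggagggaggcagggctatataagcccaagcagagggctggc
Tnnc2, chr2:164779735-164779984, minus strand: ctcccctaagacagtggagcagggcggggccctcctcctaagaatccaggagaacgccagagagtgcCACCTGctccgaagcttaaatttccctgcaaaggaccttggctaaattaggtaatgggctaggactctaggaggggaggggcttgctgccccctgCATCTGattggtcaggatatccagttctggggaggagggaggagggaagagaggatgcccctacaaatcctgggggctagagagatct
Eno3, chr11:70656926-70657175, plus strand: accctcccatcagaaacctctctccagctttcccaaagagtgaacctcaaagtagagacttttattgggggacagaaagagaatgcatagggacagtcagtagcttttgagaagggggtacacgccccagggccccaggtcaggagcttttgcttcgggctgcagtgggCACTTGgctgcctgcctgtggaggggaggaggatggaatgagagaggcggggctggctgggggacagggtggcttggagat
Pygm, chr19:6384158-6384407, plus strand: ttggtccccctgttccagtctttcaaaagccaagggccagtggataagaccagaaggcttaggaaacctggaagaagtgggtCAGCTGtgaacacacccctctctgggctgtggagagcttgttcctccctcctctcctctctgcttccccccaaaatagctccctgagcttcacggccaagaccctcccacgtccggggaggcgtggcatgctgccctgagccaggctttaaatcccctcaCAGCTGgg

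The 250 bases before the Tnni1 start hold 4 E-boxes, at 224, 191, 68 and 31 bases before it, and 1 of them is CAGCTG. The Tnnc1 sequence holds 2, at 197 and 145 bases, and the Tnnc2 sequence 2, at 183 and 88 bases. Eno3 has 1, at 81 bases. Pygm has 2, at 168 and 8 bases, and both are CAGCTG. E-boxes were thus present both where the gene rose and where the genes fell. No MEF2 match lies in any of the sequences shown. Over the 34 starts of muscle genes, 30 (88.2%) held at least 1 E-box, against 66.2% of the 32851 starts in the table. CAGCTG, which is also counted as an E-box, was in 17 of 34 (50%), against 13.0%. A MEF2 match was in 5 of 34 (14.7%), against 2.92%, and a CArG box, the site of serum response factor, in 3 of 34 (8.82%), against 1.47%. Starts of 1 gene can overlap and share a match. A match to these letters does not show that a factor binds there.

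Of the 11 thick filament genes none passed the test by limma (adjusted p), and 5 were lower at an unadjusted p under 0.05. All 11 differences lay below 0, with a median of -0.25. Over all 17736 genes, 3778 were called lower, 5289 were lower at an unadjusted p under 0.05, and 11443 differences lay below 0. The 4 thick filament genes with the smallest p were Ttn, Myl1, Mybpc2 and Mylpf. On the spike-in scale only 1 of the 35 muscle genes, Tnnc1, kept a difference below 0, so these signs turn with the scale.

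Myl1 encodes the essential light chain of fast myosin. Its levels were 5.19, 4.89, 4.92 and 4.86 on Control arrays 1 to 4 and 4.74, 4.62, 4.64 and 4.69 on DTG arrays 1 to 4. The groups did not overlap, and Control 1 stood above the other Control arrays. The difference was -0.29 (SE 0.10), with a limma adjusted p of 0.053.

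Ttn encodes titin, the giant spring that runs from Z-disc to the middle of the sarcomere. Its brightest probe read 3.99, 3.79, 3.97 and 3.76 in Control and 3.64, 3.68, 3.58 and 3.61 in DTG. Again no DTG value reached the lowest Control value, and the difference of -0.25 (SE 0.09) missed the threshold at a limma adjusted p of 0.059. The 3 other Ttn probes differed by -0.66, -0.29 and -0.45, all in the same direction and none called.

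Mybpc2 encodes the fast form of myosin-binding protein C, which ties myosin into the filament. Its Control levels were 3.86, 3.59, 3.52 and 3.52, and its DTG levels were 3.05, 3.22, 3.43 and 3.39. No overlap was seen, DTG 1 was the lowest, and the difference was -0.35 (SE 0.12, limma adjusted p = 0.056). Mylpf, the regulatory light chain of fast myosin, read 0.27, 0.17, -0.19 and -0.30 in Control and -0.44, -0.42, -0.18 and -0.65 in DTG. Here DTG 3 lay within the Control range, and the difference was -0.41 (SE 0.16, limma adjusted p = 0.075).

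None of the 4 adult myosin heavy chains passed the test. Myh4, the motor of the fastest fibres (type IIb), ran from 3.72 to 4.63 in Control and from 3.48 to 4.13 in DTG, with the highest value on Control 1 and the lowest on DTG 1. Its difference of -0.17 had a 95% interval from -0.67 to 0.33, which holds a fall of the size seen in Tnnc1. Myh1 (type IIx) differed by -0.20 (SE 0.10) and Myh2 (type IIa) by -0.15 (SE 0.12), both with overlapping groups. Myh7 of slow fibres was dim, from -5.15 to -4.66 in Control and from -5.28 to -4.95 in DTG, and differed by -0.27 (SE 0.13, limma adjusted p = 0.14).

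The slow light chains Myl3 and Myl2 differed by -0.27 (SE 0.12) and -0.13 (SE 0.19), and neither passed. Mybpc1, the slow form of myosin-binding protein C, was the steadiest of the thick filament genes. It read 3.12, 3.23, 3.13 and 3.17 in Control and 3.07, 3.19, 3.04 and 3.26 in DTG. The groups overlapped throughout, and the 95% interval of its difference, -0.02, ran from -0.22 to 0.17. A second Mybpc1 probe differed by 0.05, the opposite sign, with 1 Control value.

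Of the 9 thin filament genes, 4 fell (44.4%, against 21.3% of all genes) and 1 rose (11.1%, against 11.2%). The 5 called genes are all troponins, the calcium switch of the filament: troponin C binds calcium, troponin I holds actin back and troponin T ties the complex to tropomyosin. All 4 falls were on the 75th-percentile scale, and 3 of them turned above 0 on the spike-in scale.

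Tnni2, the fast troponin I, read 5.32, 5.09, 5.16 and 5.05 in Control and 4.81, 4.64, 4.69 and 4.88 in DTG. Every DTG array lay below every Control array. The difference was -0.40 (SE 0.10, limma adjusted p = 0.017), and the call held without each of the 8 arrays in turn, with a highest adjusted p of 0.049.

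Tnnt3, the fast troponin T, read 5.22, 5.02, 5.16 and 5.04 in Control and 4.75, 4.71, 4.74 and 4.87 in DTG. The groups did not overlap, and the difference was -0.34 (SE 0.09, limma adjusted p = 0.018). A second Tnnt3 probe fell by 0.33 (limma adjusted p = 0.045). The call was lost without Control 3 (limma adjusted p = 0.053), without DTG 2 (0.051) and with slide column as a block (0.057).

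Tnnc2, the fast troponin C, read 5.22, 4.83, 4.91 and 4.85 in Control and 4.70, 4.54, 4.62 and 4.62 in DTG. The groups did not overlap, though Control 1 was well above the other Control arrays. The difference was -0.33 (SE 0.11), and its limma adjusted p of 0.045 was the closest to the threshold among the 9 called genes: leaving out any array but Control 2 took it to between 0.052 and 0.11, and slide column as a block to 0.062.

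Tnnc1, the troponin C of slow fibres and heart, showed the largest fall among the 35 genes. Control arrays read -1.11, -1.15, -1.13 and -1.07, within 0.09 of each other, and DTG arrays read -1.35, -1.78, -1.63 and -1.64. The groups did not overlap, and DTG 1 was the nearest to Control. The difference was -0.48 (SE 0.11, limma adjusted p = 0.010), which held without each array in turn, with a highest adjusted p of 0.030.

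Tnni1, the slow troponin I, moved the other way. It read -2.01, -1.33, -1.75 and -1.52 in Control and -0.48, -1.19, -1.16 and -1.11 in DTG. No DTG value was as low as the highest Control value, and DTG 1 stood far above the other DTG arrays. The difference was 0.67 (SE 0.20, limma adjusted p = 0.035), and it was above 0 on every scale tried, with 1.14 on the spike-in scale. The call was lost without Control 1, Control 3, Control 4, DTG 1 or DTG 4, at limma adjusted p of 0.050 to 0.078, and with slide column as a block, at 0.098. Without DTG 1 the difference was 0.50.

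Tnnt1, the slow troponin T, was the most variable of the thin filament genes. It read 0.86, 1.88, 0.37 and 1.91 in Control and 2.33, 1.16, 2.09 and 1.83 in DTG. Control 1, Control 3 and DTG 2 were low and the other 5 arrays were high, so the groups overlapped. The difference of 0.60 (95% interval -0.29 to 1.49) did not pass. The genes of slow troponin thus included 1 fall, 1 rise and 1 difference that could not be placed on either side of 0.

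The remaining thin filament genes did not pass. Acta1, the actin of skeletal muscle, read 4.79, 4.78, 4.75 and 4.89 in Control and 4.67, 4.52, 4.49 and 4.59 in DTG. Its groups did not overlap, and the difference was -0.23 (SE 0.08, limma adjusted p = 0.059). Tpm2, a tropomyosin that lies along actin, differed by -0.11 (SE 0.09). For Neb, the nebulin ruler of filament length, 1 probe differed by -0.02 (SE 0.16) and the other by -0.20 (limma adjusted p = 0.34).

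**Figure D2:**
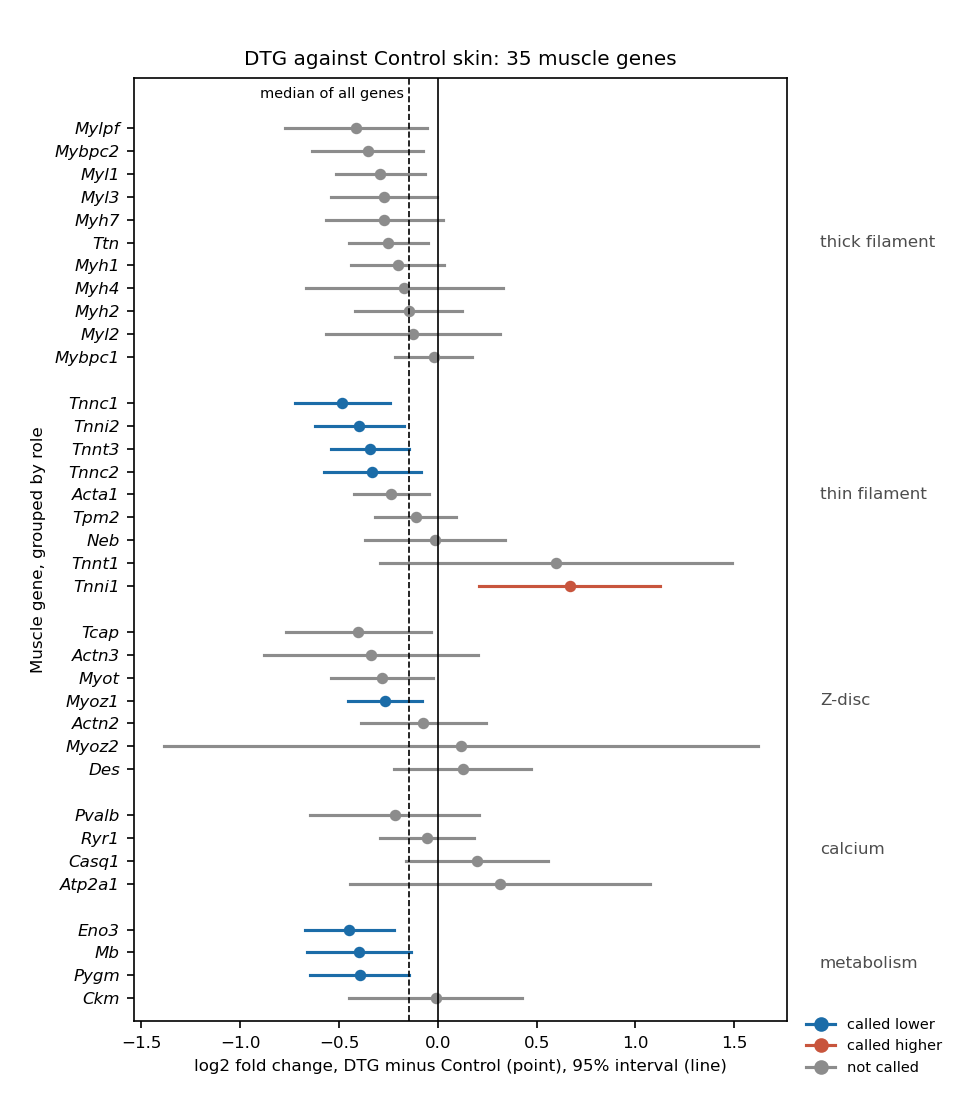
Log2 difference, DTG minus Control, of the 35 muscle genes on the scale of each array's 75th percentile (horizontal axis), grouped by role (vertical axis). Points are the limma estimates and lines their 95% intervals from 4 Control and 4 DTG arrays, the dashed line is the median of all genes at -0.15, blue marks the 8 genes that fell and red the 1 that rose. On the spike-in scale 34 of the 35 points would lie above 0.

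Of the 7 Z-disc genes, 1 fell (14.3%, against 21.3% of all genes), none rose and the median was -0.27. Myoz1, a calcineurin-binding protein of fast-fibre Z-discs, read 3.52, 3.50, 3.33 and 3.47 in Control and 3.15, 3.17, 3.18 and 3.25 in DTG. The DTG arrays lay within 0.09 of each other and all below Control. The difference was -0.27 (SE 0.08, limma adjusted p = 0.038), which is -0.12 relative to the median gene and 0.21 on the spike-in scale. The call was lost on leaving out any array but Control 3, at limma adjusted p of 0.065 to 0.085, and with slide column as a block, at 0.091.

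Tcap, also called telethonin, caps titin at the Z-disc. It read 4.61, 4.30, 4.88 and 4.42 in Control and 4.06, 4.47, 3.92 and 4.15 in DTG. DTG 2 lay inside the Control range and the other 3 DTG arrays below it. The difference was -0.40 (SE 0.16, limma adjusted p = 0.086).

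Myot encodes myotilin, which cross-links actin at the Z-disc. It read 3.26, 3.39, 3.12 and 3.08 in Control and 3.10, 3.0, 2.75 and 2.86 in DTG, with DTG 1 above the lowest Control array, and differed by -0.28 (SE 0.11, limma adjusted p = 0.086). Actn3, the alpha-actinin of fast fibres, read 2.72, 2.43, 2.22 and 2.25 in Control and 1.34, 2.39, 2.33 and 2.20 in DTG. A single array, DTG 1, was low, and the difference of -0.34 had an SE of 0.24.

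Actn2, the alpha-actinin found in all fibres, differed by -0.07 (SE 0.14) and Des, the intermediate filament desmin, by 0.12 (SE 0.15), neither with a call. Myoz2, the Z-disc partner of slow fibres and heart, had values on only 4 arrays once outlier spots were left out, 3 Control and 1 DTG. Its difference of 0.12 (SE 0.57) became -0.01 with the outlier spots kept, so it has no settled sign.

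Of the 4 calcium genes, none passed by limma's adjusted p and none at an unadjusted p under 0.05. Ryr1, the channel that releases calcium, read 2.57, 2.42, 2.46 and 2.48 in Control and 2.19, 2.58, 2.52 and 2.42 in DTG, and differed by -0.06 (SE 0.10). DTG 1 stood well below the Control range and DTG 4 at its lower edge. Casq1, the fast-fibre protein that holds calcium in store, read 0.98, 1.41, 1.11 and 1.52 in Control and 1.31, 1.76, 1.27 and 1.48 in DTG, a difference of 0.20 (SE 0.16).

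Atp2a1 encodes the calcium pump of fast fibres. It read 0.35, -0.28, -0.55 and 0.19 in Control and 0.01, 0.99, -0.53 and 0.51 in DTG. Both groups were wide, and the 95% interval of the difference of 0.31 ran from -0.44 to 1.07. Pvalb, the calcium buffer parvalbumin of the fastest fibres, read 4.32, 3.81, 3.99 and 3.76 in Control and 3.26, 3.93, 3.91 and 3.90 in DTG. DTG 1 was low and the other 3 DTG arrays lay inside the Control range. The difference was -0.22 (SE 0.19), and a second probe gave -0.22 as well.

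Of the 4 genes of energy metabolism, 3 fell on the 75th-percentile scale (21.3% of all genes fell), and all 3 lay at or above 0 on the spike-in scale. Eno3, the muscle enolase of glycolysis, read 4.80, 4.74, 4.64 and 4.62 in Control and 4.33, 4.27 and 4.17 on DTG arrays 1 to 3, with the DTG 4 spot left out as an outlier. Every DTG value was below every Control value. The difference was -0.45 (SE 0.10, limma adjusted p = 0.013), and it held on leaving out each array in turn, with a highest adjusted p of 0.041. Leaving out DTG 4 removed no Eno3 value, so that step did not test this gene.

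Mb, myoglobin, stores oxygen in the fibre. It read 3.55, 3.70, 3.78 and 3.55 in Control and 3.32, 3.33, 2.97 and 3.36 in DTG, and DTG 3 was the lowest by a wide margin. All DTG values lay below Control, and the difference was -0.40 (SE 0.12, limma adjusted p = 0.030). The call was lost without Control 2, Control 3, DTG 2 or DTG 3, at limma adjusted p of 0.050 to 0.081, and with slide column as a block, at 0.086. Without DTG 3 the difference was -0.31.

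Pygm, the phosphorylase that breaks down muscle glycogen, read 2.81, 2.78, 2.64 and 2.53 in Control and 2.10, 2.32, 2.46 and 2.30 in DTG. No value of either group lay within the other. The difference was -0.40 (SE 0.11, limma adjusted p = 0.025), and it was lost on leaving out any array but Control 4 or DTG 3, at limma adjusted p of 0.050 to 0.060, and with slide column as a block, at 0.072. Ckm, the muscle creatine kinase, read 2.76, 3.37, 2.91 and 3.47 in Control and 3.26, 3.31, 2.76 and 3.14 in DTG. Its groups overlapped fully, and the difference of -0.01 had a 95% interval from -0.45 to 0.43.

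By kind of fibre, 4 of the 14 fast-fibre genes fell (28.6%), with a median of -0.28, and of the 7 slow-fibre genes 1 fell and 1 rose (14.3% each), with a median of -0.13. Of the 14 genes placed in neither class, 3 fell (21.4%), with a median of -0.17. Mybpc1, described above as the slow form, was counted among these 14 and not among the slow genes. Over all genes 21.3% fell and 11.2% rose, with a median of -0.15, so these counts are near the background. A difference between fast and slow genes was not tested. Among the 14 fast genes, Control 1 was the highest Control array in 11.

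Summed over the 33 muscle genes with a value on every array, Control arrays had a log2 signal of 8.62 ± 0.07 (SD, n = 4) and DTG arrays one of 8.38 ± 0.04 (SD, n = 4). The Control arrays ran from 8.58 to 8.72 and the DTG arrays from 8.33 to 8.43, without overlap. The difference was -0.24 on the 75th-percentile scale and 0.23 on the spike-in scale. The sum is led by the bright genes. For the 6 slow genes summed it was 0.43 higher in DTG. The ranges overlapped, at 1.20 to 2.29 in Control and 1.67 to 2.69 in DTG. That slow sum is led by Tnnt1, the brightest of the 6, which differed by 0.60 without passing the test. Tnni1 differed by 0.67, and Tnnc1, Myl3, Myh7 and Myl2 by -0.48, -0.27, -0.27 and -0.13, so the slow genes did not move together.

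The scale on which arrays are compared decides the sign of most of these differences. The spike-in signal minus the array's 75th percentile was -0.71 to -1.25 on Control arrays and -1.35 to -1.47 on DTG arrays. Placing the arrays on the spike-ins moved the median of all genes from -0.15 to 0.33, and that of the 35 muscle genes from -0.23 to 0.22. Set against the all-gene median, the muscle genes stood at -0.09 on the first scale and -0.10 on the second. Relative to that median, on the 75th-percentile scale, Tnnc1 stood at -0.34, Eno3 at -0.30, Mb, Tnni2 and Pygm at -0.25 each, and Tnni1 at 0.81. With quantile scaling the muscle genes lay 0.04 above the median of all genes, with 21 differences below 0 and 14 above.

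**Figure D3:**
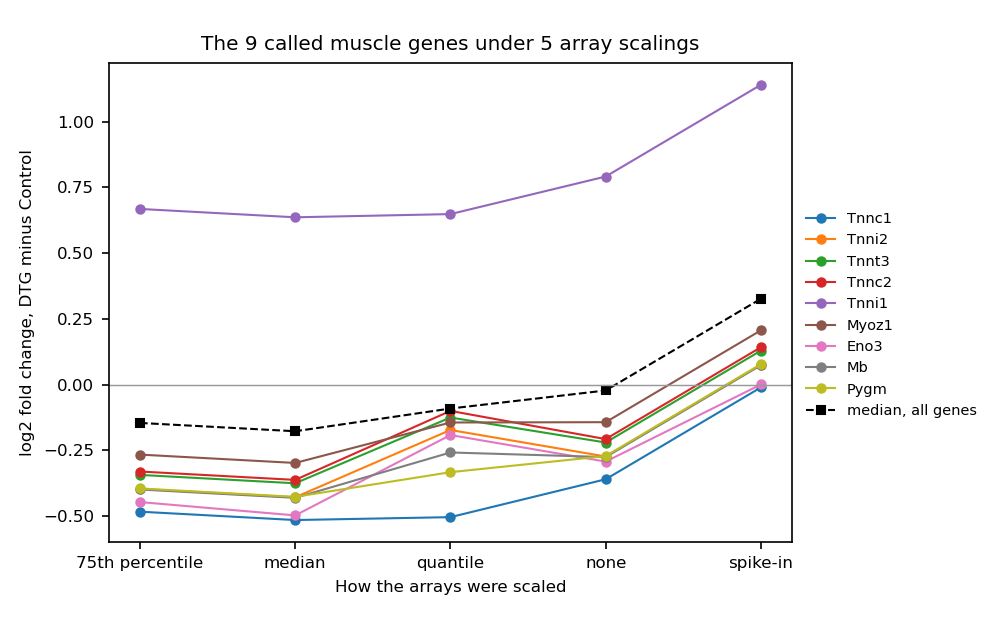
Log2 difference, DTG minus Control (vertical axis), of the 9 called muscle genes under 5 ways of scaling the arrays (horizontal axis), with the median of all genes as black squares. Lines join the values of 1 gene. Tnni1 stays above 0 throughout, and 7 of the 8 genes that fell on the 75th-percentile scale lie above 0 on the spike-in scale, while Tnnc1 is at -0.01.

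The sex-linked genes went against the label on some arrays. Xist, expressed from the inactive X, was high on Control 2, Control 4, DTG 1, DTG 3 and DTG 4, at -0.75 to -0.24, and low on the other 3 arrays, at -7.10 to -6.45. The Y-linked Eif2s3y was the reverse, at -7.79 to -6.18 on the 5 arrays and 1.22 to 1.67 on the 3, although all are labelled male. Both kinds occur in both groups.

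Tnnt1, Tcap and Pvalb were the 3 muscle genes (8.57%) whose values did not overlap between the 3 low-Xist and the 5 high-Xist arrays, which held for 4.88% of all genes. Over all genes, 2.74% were lower and 2.14% higher on every low-Xist array. Tnnt1 was 0.37 to 1.16 on the low-Xist arrays and 1.83 to 2.33 on the others. Tcap was 4.47 to 4.88 on the low-Xist arrays and 3.92 to 4.42 on the others, and Pvalb 3.93 to 4.32 and 3.26 to 3.91. These 3 were picked by that pattern, so they have no test. With the Xist class as a covariate, the DTG difference was 0.31 for Tnnt1 (limma adjusted p = 0.17) and -0.30 for Tcap (0.059), and Tnni1 kept its call at 0.57 (limma adjusted p = 0.038), while Tnnc2 lost its call at -0.31 (limma adjusted p = 0.068).

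**Figure D4:**
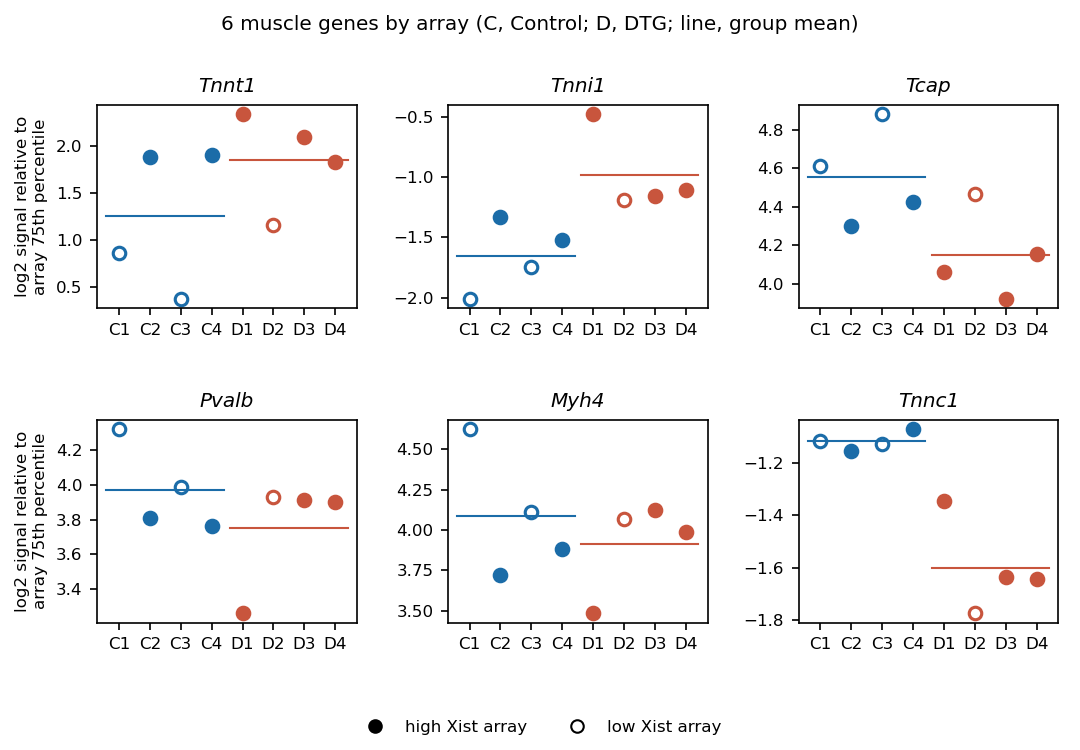
Levels of 6 muscle genes on each array, as log2 signal minus the 75th percentile of that array (vertical axes, each with its own range), for Control (blue) and DTG (red) arrays. Open circles are the 3 arrays with low Xist, filled circles the 5 with high Xist, and lines are group means. Tnnt1 is low on the 3 open circles, Tcap is high on them, and Tnni1 and Tnnc1 separate Control from DTG on this scale, while on the spike-in scale the Tnnc1 difference is -0.01.

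Genes of skeletal muscle outside the 35 were read the same way. Of 67 further genes listed for the sarcomere, excitation and energy supply, 22 (32.8%) fell and 1 (1.49%) rose, with a median of -0.23. The values over all genes were 21.3%, 11.2% and -0.15. Of the 29 genes on the sarcomere list 6 (20.7%) fell, near the share of all genes. Among them were Myoz3 (-0.39), Myom2 (-0.38) and Tmod4 (-0.39), which sit at the Z-disc, the M-band and the pointed end of actin. Myh14 (-0.40) was also among the 6, and whether each listed gene is confined to muscle was not tested. Of the 18 genes of excitation and calcium 5 (27.8%) fell, among them Cacna1s (-0.40), the voltage sensor, and Kcnj11 (-0.50), a potassium channel. Atp2a2, the calcium pump of slow fibres, heart and non-muscle cells, rose by 0.55 (limma adjusted p = 0.0058).

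Of the 20 further genes of energy metabolism, 11 (55%) fell, against 21.3% of all genes, and the median was -0.32, against -0.15. Cox7a1 (-0.55) and Cox8b (-0.54) are subunits of cytochrome oxidase found in muscle, and Pgam2 (-0.44) is the muscle phosphoglycerate mutase. Whether the genes of this list are confined to muscle was not tested. All these falls are on the 75th-percentile scale. On the spike-in scale the summed signal of the 20 energy genes was 0.12 higher in DTG, and on the 75th-percentile scale 0.36 lower (-0.36).

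Marker lists of some other cell types of skin were also lower in DTG, and their part in the result was not tested. On the 75th-percentile scale the summed signal differed by -0.29 for adipocytes, -0.29 for Schwann cells and nerve, -0.33 for fibroblasts, -0.29 for keratinocytes, -0.24 for endothelium, -0.14 for smooth muscle and -0.12 for leukocytes, beside -0.24 for the muscle genes. The Control and DTG arrays overlapped for keratinocytes (7.41 to 7.81 against 7.18 to 7.44), smooth muscle (5.86 to 6.21 against 5.81 to 5.94) and leukocytes (5.97 to 6.30 against 5.84 to 6.18), and not for the other 4 lists. All 7 lists turned above 0 on the spike-in scale, as the muscle genes did. Of the marker genes, 9 of 15 for adipocytes fell (Plin1 by 1.35), 7 of 14 for Schwann cells, 4 of 12 for fibroblasts, 6 of 12 for keratinocytes, 3 of 10 for endothelium, 2 of 15 for smooth muscle and 2 of 9 for leukocytes, against 21.3% of all genes. The shares for smooth muscle (13.3%) and leukocytes (22.2%) were below it or close to it. Ivl of keratinocytes (0.42, limma adjusted p = 0.040) and Tie1 of endothelium (1.09, 0.0057) rose, and Lep of adipocytes differed by 1.32 without passing (0.093). The median difference of a marker was -0.04 for smooth muscle, -0.04 for endothelium and -0.09 for leukocytes, nearer 0 than the all-gene median of -0.15. Markers of every one of these cell types were above background on the arrays, as whole skin holds them all. The lists are not fully separate, and whether a marker is confined to its cell type was not tested. Casq2 (1.29, not called) stood on both the smooth muscle list and the skeletal muscle list of excitation and calcium.

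**Figure D5:**
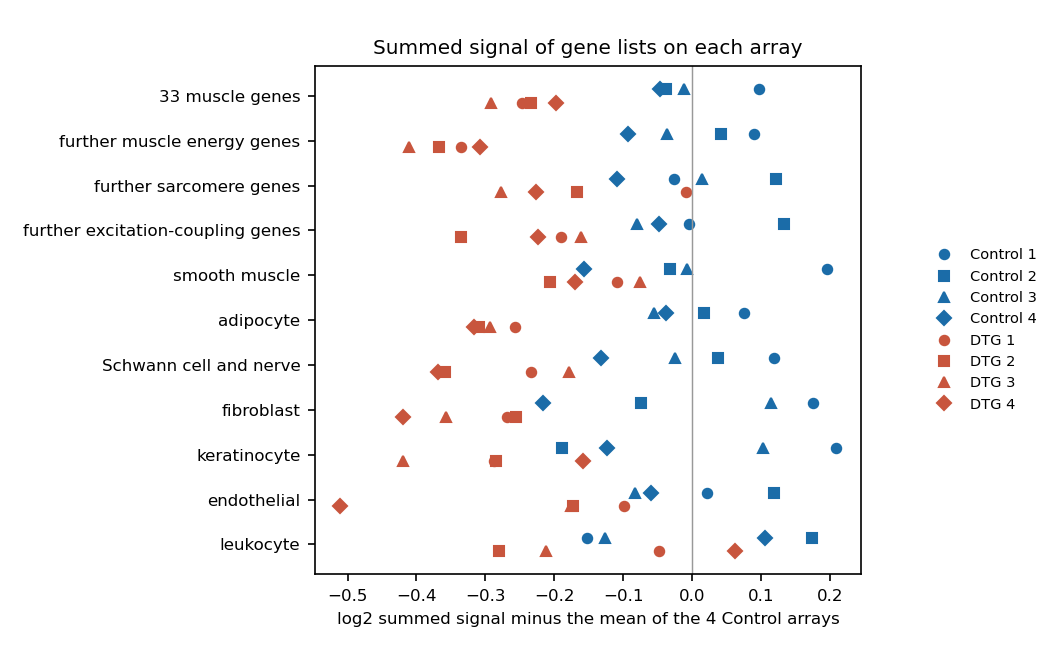
Summed signal of gene lists on each array, as log2 of the sum minus the mean of the 4 Control arrays, on the scale of each array's 75th percentile (horizontal axis), for 33 muscle genes, 3 further lists of muscle genes and 7 lists of cell type markers (vertical axis). Blue marks are Control and red marks DTG arrays. The muscle genes differ by -0.24 and the adipocyte markers by -0.29, and on the spike-in scale every list shown is higher in DTG.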

How the data were processed

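The deposited scanner output of each array holds the brightness of every spot as a linear intensity, background-corrected by the authors with Agilent Feature Extraction (11.5.1.1 per the file headers, 10.7 per the submitters' processing notes). The authors' deposited value table holds the same intensity (99.6% of values within 0.001, relative) and served as an alternative. RNA was extracted with TRIzol, amplified and labelled with Cy3, per the labels' protocols.

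Accessions were matched to RefSeq (GRCm38.p6, names and upstream sequences), which named 26762 of 55681 probes. Outlier spots were left out (16 of 352 values of muscle probes), signals were put on the log2 scale, the array's 75th percentile was subtracted, and spots were averaged. Probes well above background on at least 3 of 4 arrays of a group were kept, and the brightest stood for its gene. The 2 groups were compared in limma 3.58.1 by lmFit and eBayes, two-sided (R 4.3.3; reading with data.table, version 1.17.8). Precision is limited by the number of arrays. The code was tested on simulated data.

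Groups come from the tissue label, and replicates are numbered in deposit order. Members and lists were chosen with earlier results of these data known. Named are all 35 genes, with array values for called genes and up to 4 of each role with the smallest p, and up to 3 genes of each other list. Array values of Tnnt1, Acta1 and Mybpc1 were added after their values were seen. Alternatives were 4 other scalings, normexp (offset 50), other probe filters, outlier spots kept, the mean over probes, slide column, Xist class, and each array left out.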

Additional observations from a re-analysis of the deposited data

Results flagged for a closer look

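In 3 of the 67 groups of 4 arrays checked among the muscle genes, 1 array lay far from the other 3 by Dixon's criterion (the gap to the nearest array as a share of the range), and chance gives about 1 in 20. For Mb in DTG skin, DTG 3 was the lowest at 2.97, with a gap of 0.894 of the range. For Pvalb in DTG skin, DTG 1 was the lowest at 3.26, with a gap of 0.959. For Tnni1 in DTG skin, DTG 1 was the highest at -0.48, with a gap of 0.885. DTG 1 was also the lowest DTG array for Actn3 and Myh4, and it was the highest DTG array for 15 of the 35 genes and the lowest for 8.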

How the results depend on the processing

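Against 8 muscle genes lower and 1 higher, quantile scaling gave 2 lower, and no scaling and spike-in scaling gave 0 lower by limma (4 and 0 at an unadjusted p under 0.05), each with 1 higher. The share of all genes called lower was 21.3% in the main analysis, 19% with quantile scaling, 9% with none and 2.39% with spike-ins. The share called higher was 11.2%, 12.8%, 12.6% and 30.5%. With slide column as a block there were 3 lower and 0 higher (12 and 1 unadjusted), and without 1 array 3 to 7 lower and 0 to 1 higher. Over all genes, the block gave 15.8% lower and 8.72% higher. Leaving out 1 array gave 14.4% to 19.5% lower and 8.54% to 11.1% higher. Calls lost to the block were Mb, Myoz1, Tnnc2, Tnni1, Tnnt3 and Pygm. The median difference was -0.0500 with quantile scaling, -0.11 with none and 0.22 with spike-ins, and the difference in the median muscle level per array was -0.0767, -0.11 and 0.23. On the spike-in scale the differences were 0.00020 for Eno3, 0.0736 for Mb, 0.21 for Myoz1, 0.14 for Tnnc2, 0.0756 for Tnni2, 0.13 for Tnnt3 and 0.0774 for Pygm. Of all genes, 5757 were called, and 3835 without scaling. Falls made 65.6% of all calls, 41.6% without scaling, 54.7% without the filter on dim probes and 7.27% with spike-ins. Median scaling gave 11 lower, adding Acta1, Myl1 and Ttn, with 22.9% of all genes lower. Normexp, the authors' table, the probe filters, outlier spots kept, the mean over probes and the Xist class gave 7 to 9 lower and 1 higher. In these settings 17.9% to 21.8% of all genes were lower. The causes were not tested. The slide column block pairs arrays by their place on the slide, since the labels give no replicate numbers that could pair animals.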

Other observations

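Muscle genes of development, of the heart and of the nerve contact, none among the 35, moved in both directions on the 75th-percentile scale. Of 11 genes of developmental or cardiac muscle, 3 rose and none fell by limma (1 was lower at an unadjusted p under 0.05). Chrng, the fetal subunit of the acetylcholine receptor, read -3.69, -4.17, -3.73 and -3.65 in Control and -2.69, -2.03, -2.10 and -2.60 in DTG, with no overlap and a difference of 1.45 (SE 0.19, limma adjusted p = 0.0011). Tnnt2, the cardiac troponin T that embryonic skeletal muscle also uses, was higher by 1.12 (limma adjusted p = 0.0020). Tnni3, the cardiac troponin I, was higher by 0.98 (limma adjusted p = 0.0097). These are the cardiac counterparts of Tnnt1 and Tnni1. The share of the list that rose was 27.3%, against 11.2% of all genes.

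Of 13 genes of the neuromuscular junction and of denervation, 4 fell (30.8%, against 21.3% of all genes) and none rose, also at an unadjusted p under 0.05. Utrn, the utrophin anchored at the junction, was lower on every DTG array, by 1.03 on the log2 scale (-1.03, SE 0.11, limma adjusted p = 0.00053). Lrp4, the agrin receptor, differed by -1.06, Colq, the collagen tail of acetylcholinesterase, by -0.60, and Fbxo32, a ubiquitin ligase of wasting muscle, by -0.72. Skin also expresses Utrn and Lrp4 outside muscle. The other 9 genes did not pass, and of all 13 differences 9 lay below 0 and 4 above. The receptor subunits Chrna1, Chrnb1, Chrne and Chrnd differed by 0.17, 0.03, 0.23 and -0.19. The list's summed signal was below Control on both scales, at -0.64 and, with spike-ins, -0.16. That sum is led by the brightest genes, Fbxo32 and Lrp4, with Control means of 1.30 and 0.75, and both fell. Of 15 muscle stem cell and myogenic regulator genes, of which Des is also one of the 35, only Myf5, a determination factor of muscle, passed the test, as lower. It was not well above background on any DTG array, and its Control mean of -5.72 lay below the lowest signals well above background on the DTG arrays (mean -5.40), so no fold can be given.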
